A study of Mus musculus with 25 samples.

Results

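Brain endothelium and barrier genes are described here through 10 transcripts, Cldn5, Pecam1, Flt1, Tek, Slco1a4, Itm2a, Slc2a1, Abcb1a, Mfsd2a and Ly6c1. They were taken by name from a table of counts for 47729 genes. The rule that names them uses no measured value, although they were proposed with earlier results of these data known. All 10 passed the filter on low counts, as did 17472 genes in the 20 libraries of 2 to 24 months and 17799 genes in all 25 libraries. The libraries were made from total RNA of brain hemispheres of male C57BL/6 mice, with 5 libraries each at 2, 9, 15, 24 and 30 months of age. No treatment or genetic change is given for any group, and the ages are the only difference the labels name.

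The capillaries of the brain are lined by endothelial cells that are sealed to each other by tight junctions, lack fenestrae and take up few vesicles. Because little passes between or through these cells unaided, nutrients enter through dedicated transporters and many foreign compounds are pumped back into the blood. This barrier state is kept by signals from pericytes, from the endfeet of astrocytes and through the Wnt and norrin pathway, while vascular endothelial growth factor and angiopoietin receptors steer vessel growth and stability.

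Endothelial cells are a small share of a brain hemisphere, so that in such bulk RNA fewer endothelial cells and less RNA per cell cannot be told apart. All 10 transcripts were found in every library, at 238 to 3972 counts per library. Levels are given as CPM, which are counts per 1 000 000 after scaling of the libraries with TMM (trimmed mean of M values). Per kilobase of exon, and as a mean over the 20 libraries of 2 to 24 months, Itm2a was highest at 31.03 CPM and Slc2a1 followed at 25.9 CPM. Cldn5 stood at 17.97 and Ly6c1 at 10.7 CPM per kilobase. Between 6.93 and 8.92 CPM per kilobase lay Slco1a4, Mfsd2a, Flt1 and Abcb1a, and Pecam1 (4.59) and Tek (4.27) were lowest. Close relatives that could share reads were lower: Abcb1b reached 1.44 to 4.05 CPM, Ly6c2 at most 0.778 CPM and Slco1a5 at most 0.469 CPM, while Ly6a lay at 14.9 to 36.6 CPM.

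Each library held between 17.8 and 31.3 times 1 000 000 counts. The following features of the libraries touch the results. At 30 months, GC-rich transcripts were over-represented in replicates 2 to 5, with a difference of 1.06 to 1.92 between the median log2 ratios (to the mean of the younger libraries) of the most GC-rich and the most GC-poor genes, against 0.13 in replicate 1 and -0.24 to 0.14 in the 20 younger libraries. For that reason the 2 to 24 month libraries were fitted alone, and values at 30 months are also given after a correction for GC content. Among the younger libraries the same difference was smaller but went with age. It was -0.24 to -0.082 in the libraries of 15 months and 0.054 to 0.14 in those of 24 months. At 2 months, the numbers in the titles of replicates 1 and 2 form a run apart from those of replicates 3 to 5, and what these numbers stand for is not given in the sources used here. Liver transcripts were found in some libraries, with Alb at 10 CPM or more in 13 of 25 libraries and up to 172 CPM. The p values measure the spread between libraries, and all adjusted p values below come from edgeR's quasi-likelihood test with Benjamini-Hochberg adjustment over all genes tested.

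**Figure D1:**
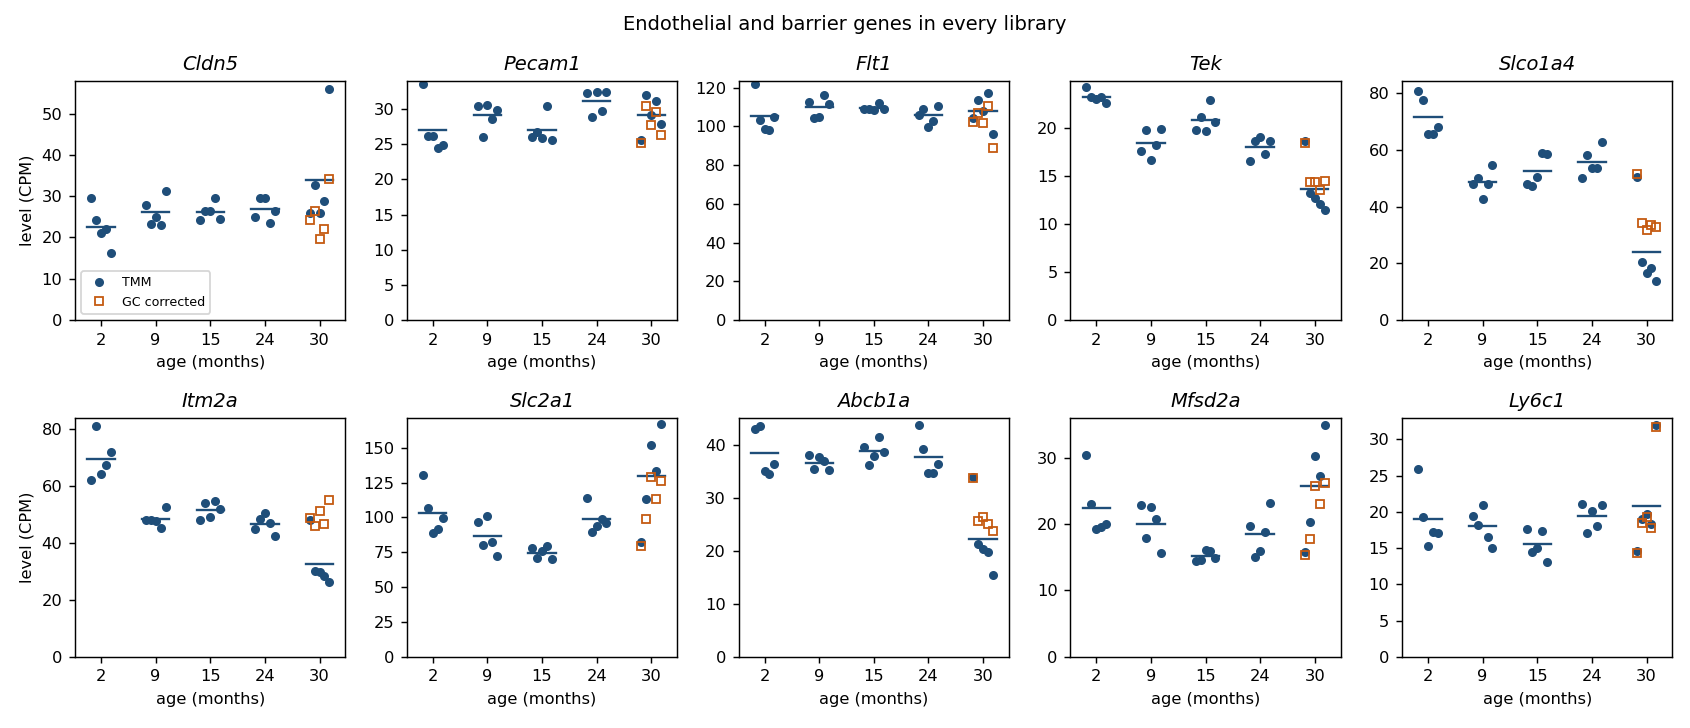
Level of each of the 10 genes (CPM, vertical axis from 0) in every library against age in months. Filled points are libraries, lines are means of 5 libraries, and open squares are the 30 month libraries after correction for GC content. Tek, Slco1a4 and Itm2a have their 5 libraries of 2 months above all libraries of 9 and, for Slco1a4 and Itm2a, 15 months, while the uncorrected Flt1 libraries stay between 95.8 and 122 CPM.

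From 2 to 9 months, the transcripts of 3 membrane proteins fell together. They were Itm2a, which encodes a single-pass membrane protein enriched in brain endothelium, Slco1a4, the organic anion transporter Oatp1a4, and Tek, the angiopoietin receptor Tie2. At 9 months Itm2a was at 69.8%, Slco1a4 at 67.97% and Tek at 79.2% of the mean at 2 months. Of all genes tested, 14.9% passed the test in this comparison and 6.96% were lower at 9 months. None of the other 7 genes passed it.

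Itm2a (ENSMUSG00000031239, chromosome X, 107397099 to 107403376, minus strand, GRCm38) had 62.1, 81.4, 64.4, 67.4 and 71.98 CPM in the libraries of 2 months. It had 48.1, 48.3, 47.8, 45.5 and 52.8 CPM at 9 months, 48.2, 54.3, 49.2, 54.8 and 51.98 CPM at 15 months and 44.96, 48.6, 50.7, 47.2 and 42.6 CPM at 24 months. All 15 libraries of the 3 later ages lay below the lowest library of 2 months. The log2 fold change was -0.52 ± 0.094 at 9 months (SE, adjusted p = 1e-05), -0.43 ± 0.086 at 15 months (adjusted p = 0.000105) and -0.58 ± 0.10 at 24 months (adjusted p = 9.31e-07), each against 2 months. Between 24 and 9 months it differed by -0.057 on the log2 scale with a 95% interval of -0.18 to 0.068, which did not pass the test (adjusted p = 0.525).

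Slco1a4 (ENSMUSG00000030237, chromosome 6, 141805440 to 141856199, minus strand) carries organic anions and some drugs across the capillary wall. It had 80.99, 77.7, 65.5, 65.8 and 68.2 CPM at 2 months, 47.9, 50.2, 42.6, 47.9 and 54.8 CPM at 9 months, 47.95, 47.5, 50.6, 59.1 and 58.6 CPM at 15 months and 50.1, 58.2, 53.6, 53.7 and 62.9 CPM at 24 months. Again no library of 9, 15 or 24 months reached the lowest library of 2 months. Replicates 1 and 2 were the highest at 2 months. The log2 fold change against 2 months was -0.57 ± 0.12 at 9 months (SE, adjusted p = 0.000324), -0.44 ± 0.11 at 15 months (adjusted p = 0.00268) and -0.37 ± 0.11 at 24 months (adjusted p = 0.00425). With the 30 month libraries in the same fit all of these calls were lost, at -0.57 (adjusted p = 0.177) at 9 months, -0.45 (adjusted p = 0.377) at 15 months and -0.38 (adjusted p = 0.335) at 24 months. The fit of all 25 libraries with correction for GC content kept them, with adjusted p = 0.00191, 0.00871 and 0.0388 in order of age. With liver transcripts as a covariate the call at 24 months was also lost (adjusted p = 0.0820).

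Tek (ENSMUSG00000006386, chromosome 4, 94739289 to 94874976, plus strand) binds the angiopoietins and keeps the endothelium quiescent when bound by Angpt1. At 2 months it was the most even of these 3 genes, with 24.2, 23.2, 23.01, 23.2 and 22.6 CPM. It then had 17.5, 19.8, 16.6, 18.2 and 19.8 CPM at 9 months, 19.7, 21.1, 19.6, 22.8 and 20.6 CPM at 15 months and 16.6, 18.6, 19.1, 17.2 and 18.6 CPM at 24 months. The libraries of 9 and of 24 months did not overlap with those of 2 months, whereas at 15 months the highest library reached into their range. The log2 fold change against 2 months was -0.35 ± 0.069 at 9 months (SE, adjusted p = 6.6e-05) and -0.38 ± 0.070 at 24 months (adjusted p = 7.44e-06). At 15 months it was -0.16 ± 0.058 (adjusted p = 0.0414), and this call was lost when any of 2 months replicates 1 to 4 or 15 months replicates 1, 2, 3 or 5 was left out (adjusted p = 0.0612 to 0.114), with liver transcripts as a covariate (adjusted p = 0.0950), with all 25 libraries in the fit (adjusted p = 0.448), without replicates 1 and 2 of 2 months (adjusted p = 0.147) and without the filter on low counts (adjusted p = 0.0653). Of all genes, 10.9% passed the test between 15 and 9 months and 24.1% between 24 and 15 months. Tek was higher at 15 than at 9 months, at 0.18 on the log2 scale (adjusted p = 0.0262), and lower at 24 than at 15 months, at -0.22 (adjusted p = 0.00417). With correction for GC content the first of these calls was lost (0.16, adjusted p = 0.0703) and the second held (-0.18, adjusted p = 0.0272).

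The 250 bases before the RefSeq start of these genes are printed because the 3 transcripts fell together, with Flt1, which did not pass the test, beside them. The sequences are from the RefSeq annotation of GRCm38.p6, which held 9 of the 10 genes, and run 5′ to 3′ on the strand of the gene. Capitals mark matches, on either strand, to AGGAAG, a core bound by ETS factors, to CTTTGNT, a core bound by TCF and LEF factors of the Wnt pathway, and to ACAAT, a core bound by SOX factors. Tek lies at chr4:94739039-94739288 (plus strand), Slco1a4 at chr6:141856221-141856470, Itm2a at chrX:107403361-107403610 and Flt1 at chr5:147726012-147726261 (minus strand for all 3).
Tek: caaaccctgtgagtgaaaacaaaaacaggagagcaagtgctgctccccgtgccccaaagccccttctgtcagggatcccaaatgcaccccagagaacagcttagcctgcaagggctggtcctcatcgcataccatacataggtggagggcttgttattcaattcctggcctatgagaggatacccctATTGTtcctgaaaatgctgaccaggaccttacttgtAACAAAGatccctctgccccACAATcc
Slco1a4: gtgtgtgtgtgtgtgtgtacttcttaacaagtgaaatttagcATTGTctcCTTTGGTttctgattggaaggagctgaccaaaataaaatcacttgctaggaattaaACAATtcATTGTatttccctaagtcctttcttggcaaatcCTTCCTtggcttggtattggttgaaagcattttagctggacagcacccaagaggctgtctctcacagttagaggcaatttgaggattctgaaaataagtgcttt
Itm2a: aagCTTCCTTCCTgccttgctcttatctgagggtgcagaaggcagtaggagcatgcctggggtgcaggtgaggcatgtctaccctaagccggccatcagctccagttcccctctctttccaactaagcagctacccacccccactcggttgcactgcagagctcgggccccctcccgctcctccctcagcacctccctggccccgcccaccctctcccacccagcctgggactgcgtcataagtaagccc
Flt1: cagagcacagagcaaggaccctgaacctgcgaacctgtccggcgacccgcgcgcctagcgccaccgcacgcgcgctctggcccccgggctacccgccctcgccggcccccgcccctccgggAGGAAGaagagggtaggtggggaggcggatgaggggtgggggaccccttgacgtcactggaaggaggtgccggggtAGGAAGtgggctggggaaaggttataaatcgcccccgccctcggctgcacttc

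Tek held 1 match to the TCF and LEF core, 27 bases before the start, and 2 to the SOX core. Slco1a4 held 1 match to the ETS core, 1 to the TCF and LEF core and 3 to the SOX core. Itm2a held 2 overlapping matches to the ETS core, and Flt1 held 2 that lay 129 and 53 bases before the start. No motif was thus common to the windows of all 3 genes that fell. Of 32851 promoter windows of the same length, 29.485% held the ETS core, 15.975% the TCF and LEF core and 27.658% the SOX core, so a match in a single window is common. A match describes these letters only, and binding was not measured.

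**Figure D2:**
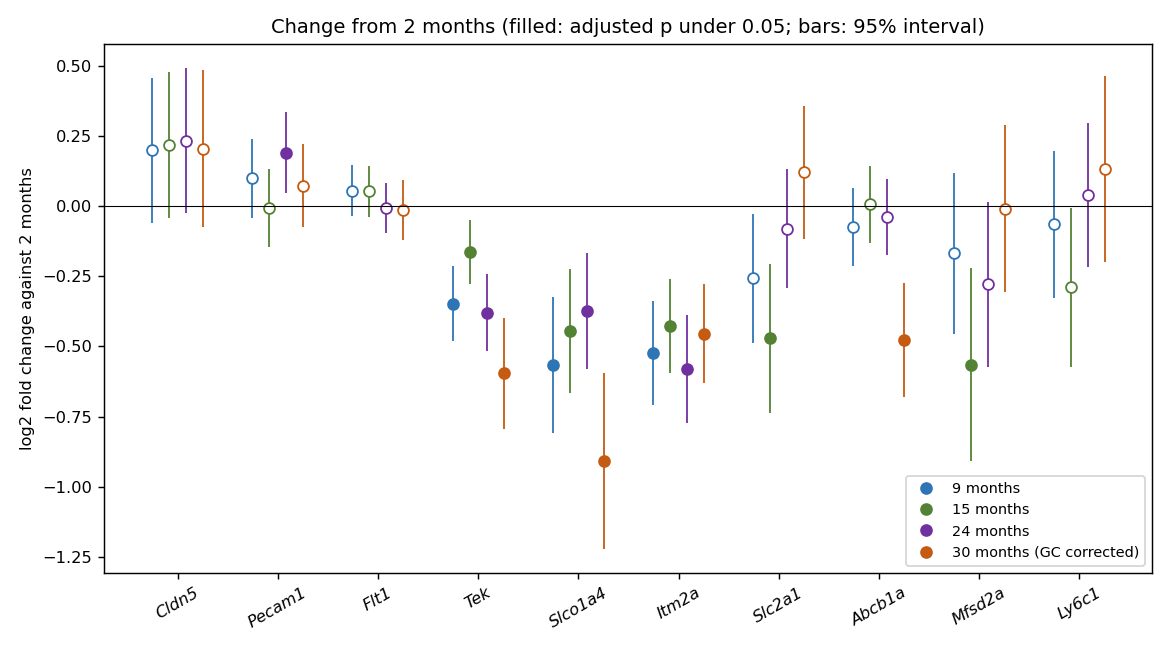
Log2 fold change of each gene against 2 months (vertical axis) at 9, 15, 24 and 30 months, the last after correction for GC content. Points are estimates, bars are 95% intervals and filled points have an adjusted p under 0.05. Tek, Slco1a4 and Itm2a lie below 0 at every age, and Slc2a1 and Mfsd2a are lowest at 15 months, at -0.47 and -0.56.

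At 15 months a pair of nutrient carriers, Slc2a1 and Mfsd2a, was lower than at 2 months beside Itm2a, Slco1a4 and Tek. In this comparison 5 of the 10 genes passed the test, all of them lower, while 13.1% of all genes passed it and 6.95% were lower. The median log2 fold change of the 10 genes was -0.23, against -0.0025 for all genes tested.

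Slc2a1 (ENSMUSG00000028645, chromosome 4, 119108711 to 119137983, plus strand) encodes GLUT1, the glucose carrier of the barrier, which astrocytes also express. It had 130.4, 107, 89.1, 91.5 and 99.7 CPM at 2 months, 96.97, 79.997, 101, 82.6 and 72.5 CPM at 9 months, 78.01, 70.9, 75.8, 79.2 and 69.8 CPM at 15 months and 114, 89.6, 93.5, 99.1 and 96.2 CPM at 24 months. The 5 libraries of 15 months all lay below those of 2 months, and those of 24 months overlapped with them. The log2 fold change of 15 against 2 months was -0.47 ± 0.14 (SE, adjusted p = 0.00927), and 24 months was higher than 15 months by 0.39 ± 0.13 (adjusted p = 0.0144). With correction for GC content the second of these calls was lost, at 0.32 (adjusted p = 0.0584). A line in age missed this course, since the departure from it passed the test (adjusted p = 0.00756) and the slope did not (adjusted p = 0.701).

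Mfsd2a (ENSMUSG00000028655, chromosome 4, 122946850 to 122961188, minus strand), the carrier of lysophosphatidylcholine bound to docosahexaenoic acid, also holds down vesicle transport across the endothelium. It had 30.4, 23.1, 19.3, 19.6 and 20.03 CPM at 2 months, 22.9, 17.9, 22.6, 20.8 and 15.6 CPM at 9 months, 14.4, 14.7, 16.03, 15.99 and 14.8 CPM at 15 months and 19.8, 15.02, 15.999, 18.8 and 23.3 CPM at 24 months. The libraries of 15 months were close to each other and all below those of 2 months, where replicate 1 was the highest. At 15 against 2 months its log2 fold change was -0.56 ± 0.18 (SE, adjusted p = 0.0182), while 24 against 2 months gave -0.28 ± 0.15 and did not pass (adjusted p = 0.170).

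The calls of Slc2a1 and Mfsd2a at 15 against 2 months were lost with other sets of libraries and with the liver covariate. With only replicates 3 to 5 of 2 months the log2 fold change was -0.32 for Slc2a1 (adjusted p = 0.0574) and -0.37 for Mfsd2a (adjusted p = 0.0947). With liver transcripts as a covariate it was -0.35 (adjusted p = 0.0709) and -0.47 (adjusted p = 0.0895) in the same order. With all 25 libraries in the fit it was -0.48 for Slc2a1 (adjusted p = 0.0901) and -0.57 for Mfsd2a (adjusted p = 0.104). The summed level of 10 liver transcripts was 12.9 to 129 CPM at 15 months (median 93.7) and 1.07 to 183 CPM at 2 months (median 4.85). At 2 months Alb was at 128 CPM in replicate 3 and at most at 5.56 CPM in the other libraries. The medians of the sum at 9 and 24 months were 8.89 and 198 CPM, so this covariate rose with age. What part of the lost calls comes from that was not tested.

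Ly6c1 (ENSMUSG00000079018, chromosome 15, 75044018 to 75048830, minus strand), a glycolipid-anchored surface protein of mouse endothelium, had 25.9, 19.3, 15.3, 17.2 and 17.1 CPM at 2 months, 19.4, 18.2, 21.005, 16.6 and 15.1 CPM at 9 months, 17.6, 14.4, 15.01, 17.4 and 13.04 CPM at 15 months and 21.1, 17.1, 20.2, 18.03 and 21.01 CPM at 24 months. The ages overlapped, and neither 15 against 2 months (-0.29 ± 0.14 on the log2 scale, adjusted p = 0.173) nor 24 against 15 months (0.33 ± 0.14, adjusted p = 0.0773) passed the test.

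Neither the junction and adhesion genes nor the other receptor passed the test for a fall at 9, 15 or 24 months. Cldn5 (ENSMUSG00000041378, chromosome 16, 18776847 to 18778262, plus strand) encodes claudin-5, the main sealing protein of the tight junctions of brain endothelium. It had 29.5, 24.2, 21.1, 22.002 and 16.2 CPM at 2 months, 27.8, 23.2, 25.05, 23.1 and 31.3 CPM at 9 months, 24.3, 26.5, 26.4, 29.6 and 24.6 CPM at 15 months and 24.9, 29.5, 29.5, 23.6 and 26.5 CPM at 24 months. Replicate 5 of 2 months was the lowest of all, and replicate 1 of that age lay among the older libraries. Its log2 fold change was 0.23 ± 0.13 for 24 against 2 months (SE, adjusted p = 0.193), with a 95% interval of -0.025 to 0.49. Leaving out 1 library moved it between 0.14, without replicate 5 of 2 months, and 0.34, without replicate 1 of that age, where it passed (adjusted p = 0.0351).

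Pecam1 (ENSMUSG00000020717, chromosome 11, 106654217 to 106750628, minus strand), an adhesion protein between endothelial cells that leukocytes and platelets also carry, had 33.5, 26.2, 26.1, 24.4 and 24.9 CPM at 2 months. It had 30.5, 26.03, 30.6, 28.6 and 29.9 CPM at 9 months, 26.1, 26.8, 25.9, 30.5 and 25.6 CPM at 15 months and 32.2, 28.8, 32.4, 29.7 and 32.4 CPM at 24 months. Replicate 1 of 2 months, the highest of its group, stood above every library of 24 months, and the other 4 stood below all of them. Its log2 fold change of 24 against 2 months was 0.19 ± 0.074 (SE, adjusted p = 0.0467). Leaving out 1 library ended this call in 15 of 20 cases, with adjusted p up to 0.127, and so did correction for GC content (adjusted p = 0.0532). It was also higher at 24 than at 15 months, at 0.20 on the log2 scale (adjusted p = 0.0358), a call that the correction ended as well (adjusted p = 0.0621). Microglial markers were higher at 24 than at 2 months in 4 of 6 cases, where 22.8% of all genes passed the test and 11% were higher. Their summed level was 354 to 394 CPM at 24 months and 312 to 366 CPM at 2 months, and their part in the Pecam1 value was not tested.

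Flt1 (ENSMUSG00000029648, chromosome 5, 147561604 to 147726011, minus strand), the receptor VEGFR1 that binds and withholds vascular endothelial growth factor, varied little with age. It had 122, 103, 98.8, 97.95 and 105 CPM at 2 months, 113, 104, 105, 116 and 112 CPM at 9 months, 109, 109, 108, 112 and 109 CPM at 15 months and 106, 109, 99.8, 103 and 111 CPM at 24 months. The 4 ages overlapped. The 95% interval of the log2 fold change was -0.037 to 0.14 at 9 months, -0.039 to 0.14 at 15 months and -0.10 to 0.082 at 24 months, each against 2 months, so that none of these intervals held a change of Tek's size.

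Abcb1a (ENSMUSG00000040584, chromosome 5, 8660077 to 8748575, plus strand) encodes P-glycoprotein, the pump that returns many drugs to the blood. It had 43.1, 43.7, 35.2, 34.5 and 36.5 CPM at 2 months, 38.1, 35.5, 37.7, 36.97 and 35.3 CPM at 9 months, 39.6, 36.3, 37.99, 41.5 and 38.7 CPM at 15 months and 43.8, 39.3, 34.7, 34.7 and 36.5 CPM at 24 months. All 4 ages overlapped, and 2 libraries of 2 months, replicates 1 and 2, were above the other 3. Between 24 and 2 months the log2 fold change was -0.040 ± 0.069 (SE, adjusted p = 0.719), with a 95% interval of -0.18 to 0.10.

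With only replicates 3 to 5 of 2 months, a choice made after their values were known, Cldn5, Pecam1 and Flt1 were higher at 9 months. Their log2 fold changes were then 0.39 (adjusted p = 0.0455), 0.20 (adjusted p = 0.0258) and 0.13 (adjusted p = 0.0363). None of these genes passed at 9 months with all libraries. Itm2a (-0.49, adjusted p = 1.64e-06), Tek (-0.32, adjusted p = 0.00124) and Slco1a4 (-0.45, adjusted p = 0.00377) stayed lower. Leaving out replicate 1 of 2 months alone put Pecam1 at 0.19 (adjusted p = 0.0189) and Flt1 at 0.11 (adjusted p = 0.0268) on the log2 scale. Of all genes, 14.9% passed at 9 months with all libraries, and leaving out any 1 library gave 2054 to 2700 genes. At 15 months the same choice of replicates 3 to 5 put Cldn5 at 0.41 (adjusted p = 0.0381) and Flt1 at 0.12 (adjusted p = 0.0408), and at 24 months it put Cldn5 at 0.42 (adjusted p = 0.0180).

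Across the span from 2 to 24 months, the 3 transcripts that fell by 9 months were also those lower at 24 months, and Pecam1 was the only one of the 10 genes called higher. In this comparison 22.8% of all genes tested passed, 11.7% lower and 11% higher. From 9 to 24 months none of the 10 genes passed the test, while 30.8% of all genes did; with correction for GC content Slco1a4 was higher, at 0.23 (adjusted p = 0.0453). A linear trend was called for Itm2a, at -0.51 on the log2 scale over the span (adjusted p = 0.00175), and for Tek, at -0.30 (adjusted p = 0.00620), against 16.8% of all genes. The departure from a line passed for Itm2a (adjusted p = 0.000442), Tek (adjusted p = 0.00062), Slco1a4 (adjusted p = 0.00115) and Slc2a1, as it did for 30% of all genes.

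Libraries that did not overlap were counted as well. At 9 months they were found for Tek, Slco1a4 and Itm2a, where 3.94% of all genes had non-overlapping lower libraries. At 15 months they were found for Slco1a4, Itm2a, Slc2a1 and Mfsd2a, where the share of all genes was 4.49%. At 24 months they were found for Tek, Slco1a4 and Itm2a once more, against 5.92%.

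At 30 months the low-GC transcripts of the group were far lower in 4 of 5 libraries, and the fifth lay in or close to the range of 24 months. Slco1a4, with a GC content of 40.3%, had 50.4, 20.5, 16.5, 18.3 and 13.9 CPM in replicates 1 to 5, and 51.7, 34.4, 31.9, 33.7 and 32.9 CPM after correction for GC content. Itm2a, at 41.7% GC, had 48.004, 30.4, 29.8, 28.3 and 26.2 CPM, and 48.8, 46.2, 51.2, 46.8 and 55.3 CPM after correction. In both genes replicate 1 was the highest before correction and lay within or close to the range of 24 months.

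Abcb1a, at 45.2% GC, had 33.99, 21.3, 20.4, 19.8 and 15.5 CPM, and 33.9, 25.7, 26.5, 25.2 and 23.7 CPM after correction. Tek, at 47.1% GC, had 18.6, 13.3, 12.7, 12.1 and 11.4 CPM, and 18.4, 14.4, 14.4, 13.6 and 14.4 CPM after correction. Replicate 1 was again the highest of its age, with Tek at the level of 24 months and Abcb1a just under it. The other 4 libraries of both genes lay below all libraries of 24 months, before and after correction.

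Against 2 months, 4 of the 10 genes were lower at 30 months with the correction and none was higher, where 45.8% of all genes passed the test and 22.7% were lower. The corrected log2 fold change was -0.91 ± 0.16 for Slco1a4 (SE, adjusted p = 8.03e-07) and -0.60 ± 0.10 for Tek (adjusted p = 2.91e-07). For Abcb1a it was -0.48 ± 0.10 (adjusted p = 4.33e-05) and for Itm2a -0.46 ± 0.090 (adjusted p = 8.31e-06). Without the correction the values were -1.57 for Slco1a4, -1.08 for Itm2a, -0.79 for Abcb1a and -0.76 for Tek, and 58% of all genes passed. The same 4 genes had no overlap between 30 and 2 months, where 12.6% of all genes had lower libraries without overlap.

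Against 24 months, Abcb1a had a log2 fold change of -0.46 with the correction (adjusted p = 0.0001), Slco1a4 one of -0.57 (adjusted p = 0.000197) and Tek one of -0.23 (adjusted p = 0.00951). These 3 genes compare with 40.9% of all genes past the test with the correction, and with 20.4% of all genes lower. Without it 6 genes passed, against 54.5% of all genes, and Itm2a turned from -0.50 without the correction to 0.090 with it (adjusted p = 0.302). Abcb1a was the only one of the 10 whose libraries did not overlap, as did not 9.83% of all genes in the lower direction.

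The GC-rich genes stood the other way before correction. Slc2a1, at 54.0% GC, had 82.04, 113, 152, 133 and 167 CPM at 30 months, and 79.5, 98.7, 129, 113 and 126 CPM after correction. Mfsd2a, at 54.2% GC, had 15.8, 20.4, 30.3, 27.3 and 35.02 CPM, and 15.4, 17.7, 25.7, 23.1 and 26.3 CPM after correction. In both, replicate 1 was the lowest, and the correction brought the other 4 down. Slc2a1 was higher than at 24 months by 0.42 on the log2 scale without correction (adjusted p = 0.0117) and by 0.23 with it, which did not pass (adjusted p = 0.126). For Mfsd2a the difference was 0.49 (adjusted p = 0.0146), and 0.30 with correction (adjusted p = 0.114).

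Cldn5, the most GC-rich at 60.5%, had 25.8, 32.7, 25.97, 28.8 and 55.9 CPM, and 24.1, 26.4, 19.5, 21.99 and 34.2 CPM after correction. Replicate 5, which had the strongest GC bias, stood apart from the other 4. Its log2 fold change against 2 months was 0.59 ± 0.19 without correction (SE, adjusted p = 0.00430) and 0.20 ± 0.14 with it (adjusted p = 0.241).

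The 3 genes near 50% GC were moved least by the correction. Pecam1 had 25.6, 32.1, 29.1, 31.1 and 27.8 CPM, and 25.1, 30.4, 27.8, 29.5 and 26.3 CPM after correction. Flt1 had 104, 114, 108, 117 and 95.8 CPM, and 102, 107, 102, 110.3 and 88.9 CPM after correction. Ly6c1 had 14.7, 19.03, 19.7, 18.3 and 32.04 CPM, and 14.4, 18.4, 19.3, 17.8 and 31.7 CPM after correction, with replicate 5 the highest on both scales. None of the 3 passed the test against 2 or 24 months, with or without the correction.

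Replicate 1 of 30 months, which had no such bias, is the only measurement of that age free of it. With it as the only library of 30 months, only log2 fold changes are given, since a lone library has no spread of its own. Against 2 months, Itm2a was at -0.54, Tek at -0.33, Slco1a4 at -0.51 and Abcb1a at -0.19. Against 24 months, Tek was at 0.051, Slco1a4 at -0.14 and Abcb1a at -0.15. The corrected fall of these 3 genes past 24 months was thus larger in the 4 biased libraries than in replicate 1. How much of it is bias left after the correction was not tested.

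**Figure D3:**
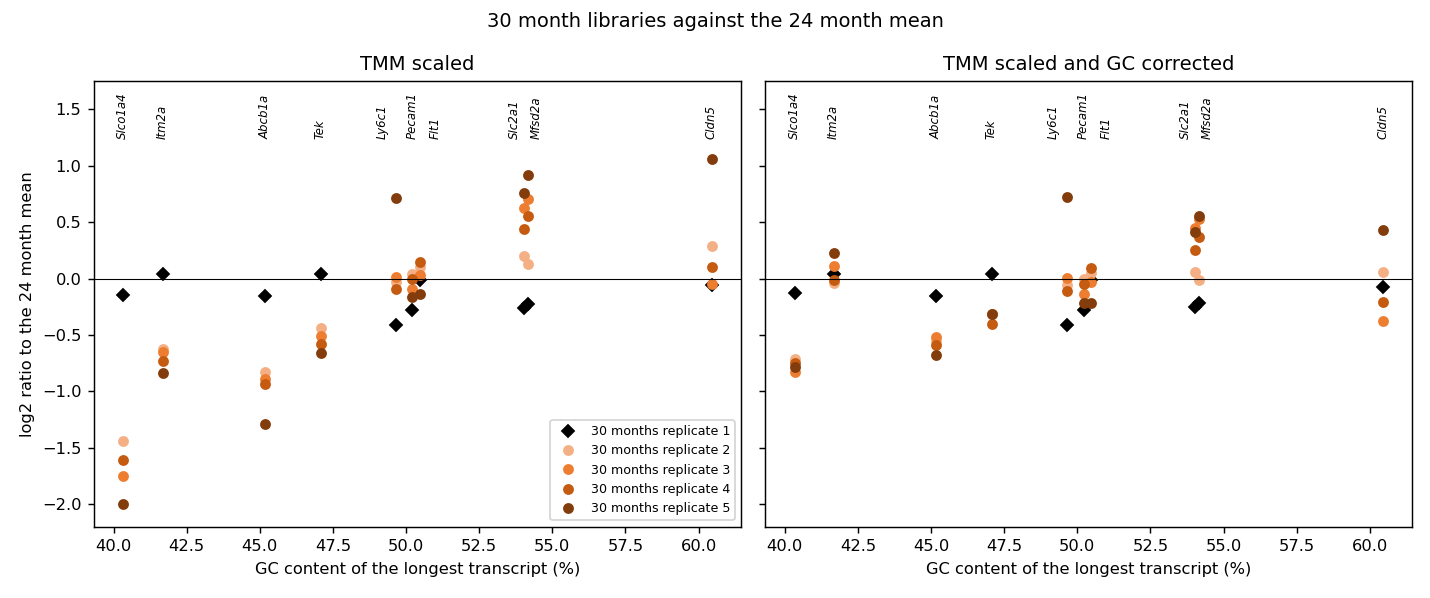
Log2 ratio of each 30 month library to the 24 month mean (vertical axis) for the 10 genes, placed by the GC content of their longest transcript in percent (horizontal axis). The left panel has TMM scaling and the right panel adds the correction for GC content, with diamonds for replicate 1 and circles for replicates 2 to 5. On the left the 4 biased replicates lie at -2.002 to -1.44 for Slco1a4 at 40.3% GC and at 0.13 to 0.91 for Mfsd2a at 54.2% GC, while the 10 genes lie at -0.41 to 0.044 in replicate 1.

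Within an age, some of the 10 genes varied together from library to library. With the mean of each age removed, the 45 pairs had a median Pearson r of 0.36 over the 20 libraries of 2 to 24 months, with a range of -0.47 to 0.87, and 35 pairs were positive. By a permutation test within ages with 100000 draws, 5 pairs passed an adjusted p of 0.05 over the 45. The points of a pair share their libraries, so depth and scaling are common to both genes. The levels were not corrected for GC content here. The difference between GC-rich and GC-poor genes also varied within an age, from -0.065 to 0.12 at 9 months. Its part in the pairs was not tested.

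The carriers and Ly6c1 formed the closest group. Slc2a1 and Ly6c1 had r = 0.87 and Spearman's rho = 0.86 (two-sided permutation p = 2e-05 for r and 4e-05 for rho, adjusted p = 0.0009 and 0.00135), and r was 0.78 without the 2 libraries farthest from the median of Slc2a1. Slc2a1 and Mfsd2a had r = 0.81 and rho = 0.83 (permutation p = 0.00044 and 6e-05, adjusted p = 0.00990 and 0.00135), with r at 0.72 without the 2 outermost libraries. Mfsd2a and Ly6c1 had r = 0.75 and rho = 0.71 (permutation p = 0.00114 and 0.00150, adjusted p = 0.0128 and 0.0179), and r was 0.58 without the 2 outermost.

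Slc2a1 was also tied to the pump Abcb1a, with r = 0.71 and rho = 0.68 (permutation p = 0.00089 and 0.00221, adjusted p = 0.0128 and 0.0199), and r was 0.68 without the 2 outermost. Tek and Slco1a4 had r = 0.68 and rho = 0.70 (permutation p = 0.00168 and 0.00159, adjusted p = 0.0151 and 0.0179), and r was 0.58 without the 2 outermost. Since replicates 1 and 2 of 2 months stand high in several genes, r was also taken over the 15 libraries of 9 to 24 months alone. It was 0.79 for Slc2a1 and Ly6c1, 0.71 for Slc2a1 and Mfsd2a, 0.72 for Tek and Slco1a4, 0.59 for Slc2a1 and Abcb1a and 0.57 for Mfsd2a and Ly6c1. The lowest pair over the 20 libraries, Itm2a and Mfsd2a, had r = -0.47 and did not pass (permutation p = 0.0878, adjusted p = 0.197). Over the 15 libraries of 9 to 24 months it was at -0.67, Tek and Slc2a1 at -0.71 and Slco1a4 and Slc2a1 at -0.56. Some pairs changed sign between the 2 sets, such as Cldn5 and Slc2a1, at 0.21 over the 20 libraries and -0.26 over the 15. The count of positive pairs above thus holds with the 2 month libraries included. No test was run on the 15 libraries.

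**Figure D4:**
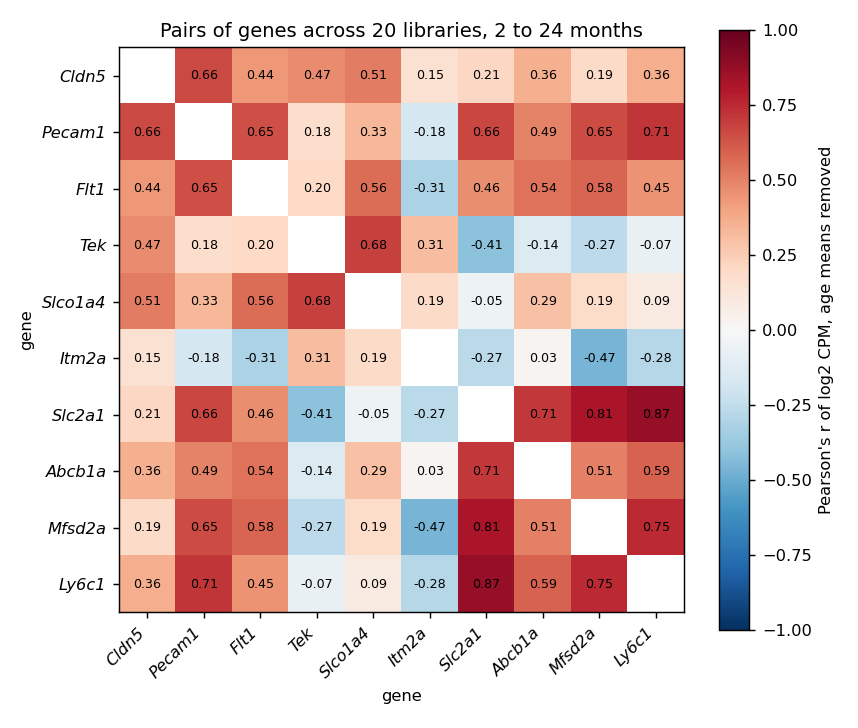
Pearson's r of log2 CPM for each pair of the 10 genes (rows and columns) over the 20 libraries of 2 to 24 months, with the mean of each age removed. Red is positive and blue negative. Slc2a1, Mfsd2a and Ly6c1 form the reddest block, at 0.75 to 0.87, and Itm2a has negative values with Mfsd2a.

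Among 13487 other genes of at least 2 CPM, the nearest to the mean of the 10 standardised profiles over the 20 libraries were Igfbp7 (r = 0.86), Fn1 (0.85), Ttyh1 (0.82), Vwf (0.80) and Il13ra1 (0.80). These correlations include the differences between ages and are given as a description. Nearest to Slco1a4 were Strip2 and Tfrc, the transferrin receptor, both at r = 0.90. Tek was nearest to Lrrc42, and Itm2a to Gnb4 and Cxadr, again all at 0.90. Slc2a1 was nearest to Ttyh1 and Hif3a (both 0.86), Mfsd2a to Kirrel2 (0.86) and Ttyh1 (0.85), and Ly6c1 to Castor1 (0.87) and Fkbp5 (0.86). Pecam1 was nearest to C1qb (0.87), a complement gene of microglia. Flt1 was nearest to Prkca (0.80), Abcb1a to A830073O21Rik (0.81) and Cldn5 to Gas1 (0.78).

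Other genes of the vessel wall were read in the same fit, by 24 against 2 months, where 22.8% of all genes passed and the median of all genes was 0.0024 on the log2 scale. Below, levels are means ± SD over 5 libraries, log2 fold changes are given ± SE, and a list's median is that of its log2 fold changes. Of 12 tight and adherens junction genes, 1 was higher and 1 lower, with a median of -0.067. Cldn12, another claudin, was lower, with a log2 fold change of -0.11 ± 0.038.

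Of 18 further barrier transporters and receptors, 2 were higher and 5 lower, with a median of -0.049. Slc16a1, the carrier of lactate and ketone bodies, was higher, with a log2 fold change of 0.26 ± 0.057 (adjusted p = 0.000136). Lower were Slc38a5, a glutamine carrier, with 2.59 ± 1.14 CPM at 24 months and 5.91 ± 3.42 CPM at 2 months, and Slc22a8, an organic anion carrier, with 19.9 ± 1.29 CPM at 24 months and 23.9 ± 2.82 CPM at 2 months. Slco1c1, the thyroxine carrier related to Slco1a4, was lower too, with 57.01 ± 3.99 CPM at 24 months and 67.6 ± 5.64 CPM at 2 months (log2 fold change -0.26 ± 0.080, adjusted p = 0.00931).

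Around the receptors Tek and Flt1, 12 angiogenic receptor genes had 1 higher and 3 lower, with a median of -0.010. Tie1, the partner of Tek, had 12.9 ± 1.31 CPM at 24 months and 14.8 ± 0.969 CPM at 2 months (log2 fold change -0.22 ± 0.076, adjusted p = 0.0245), and Ptprb, the phosphatase that acts on Tek, 72.02 ± 5.83 CPM at 24 months and 82.95 ± 5.04 CPM at 2 months (-0.22 ± 0.064, adjusted p = 0.00641). Nrp1, a co-receptor of vascular endothelial growth factor, was lower, with a log2 fold change of -0.22 ± 0.060, and Adgrl4, an adhesion receptor of endothelium, was higher, with a log2 fold change of 0.53 ± 0.12 (adjusted p = 0.00031). Of 9 ligands, Angpt2, which competes with Angpt1 for Tek, was higher, with a log2 fold change of 0.36 ± 0.13, and Vegfc was lower, with a log2 fold change of -0.46 ± 0.17, both at 2.1 to 3.3 CPM.

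The Wnt and norrin pathway, which maintains the barrier, had 6 of 13 genes lower at 24 months and none higher, with a median of -0.10. Wnt7a, a ligand made by neural cells, had 9.00 ± 1.45 CPM at 24 months and 13.2 ± 0.932 CPM at 2 months (log2 fold change -0.58 ± 0.11, SE, adjusted p = 1.87e-05), and Wnt7b was lower, with a log2 fold change of -0.18 ± 0.067. Apcdd1, an inhibitor of Wnt signals and itself a target of the pathway, was lower, with a log2 fold change of -0.52 ± 0.084 (adjusted p = 2.43e-07), and Tspan12, a co-receptor for norrin, with one of -0.17 ± 0.066.

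Of 6 genes of fenestrae, caveolae and transcytosis, 3 were higher and 1 lower at 24 months, with a median of 0.22. Plvap, the diaphragm protein that barrier endothelium normally lacks and that choroid plexus vessels carry, had 9.18 ± 0.566 CPM at 24 months and 5.97 ± 1.02 CPM at 2 months (log2 fold change 0.60 ± 0.12, SE, adjusted p = 2.39e-05). Cavin1 and Cavin3, coat proteins of caveolae, were higher, with a log2 fold change of 0.37 ± 0.091 and 0.25 ± 0.074, and Cav2 was lower, with a log2 fold change of -0.13 ± 0.049. The summed level of 8 choroid plexus markers was 617 to 739 CPM at 24 months and 488 to 555 CPM at 2 months, without overlap. None of these markers passed the test. The same fit held a 9 month library almost without them, as the lowest sum of that age was 43.8 CPM (median 529). In replicate 1 of 9 months Ttr was at 17.96 CPM, against 457 to 492 CPM in the other libraries of that age. How far this library hid a change of the markers was not tested, and neither was their part in the Plvap value.

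Of 18 other pan-endothelial genes, 2 were lower and none higher, with a median of -0.065; Cd93 was lower, with a log2 fold change of -0.38 ± 0.091 (adjusted p = 0.000724) and Cd34, with one of -0.16 ± 0.058. None of 12 endothelial transcription factors passed the test at 24 months, with a median of -0.00011. Of 7 arterial genes 2 were lower, Gkn3 with 1.23 ± 0.266 CPM at 24 months and 2.25 ± 0.946 CPM at 2 months, and Efnb2 with 55.2 ± 4.96 CPM at 24 months and 62.2 ± 1.92 CPM at 2 months. Of 6 leukocyte adhesion genes 3 passed the filter on low counts, and none passed the test.

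**Figure D5:**
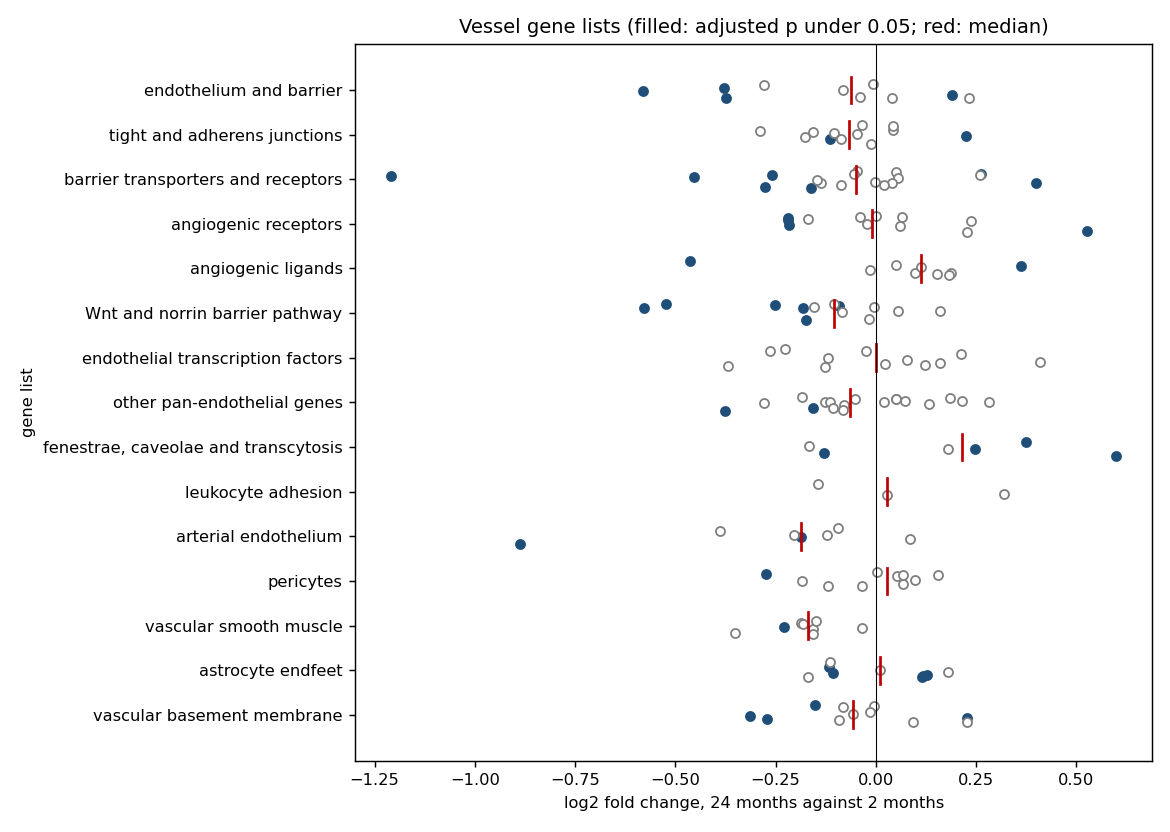
Log2 fold change of 24 against 2 months (horizontal axis) for the genes of 15 vessel lists (rows), with the 10 endothelial and barrier genes in the top row. Points are genes, filled where the adjusted p is under 0.05, and red lines are medians. The Wnt and norrin row has 6 filled points left of 0 and none to the right, and the transcription factor row has none.

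Some markers of pericytes and vascular smooth muscle were lower at 9 months, where 14.9% of all genes passed the test and 6.96% were lower. Of 10 pericyte markers 5 were lower than at 2 months and none higher, with a median of -0.14. Their summed level was 247.8 to 296.1 CPM at 9 months (median 281) against 297.5 to 345.6 CPM at 2 months (median 308). Rgs5, whose levels are given below, was a large part of that sum. Of 8 vascular smooth muscle markers 5 were lower and none higher, with a median of -0.48, and their sum was 92.005 to 109 CPM at 9 months against 112 to 153 CPM at 2 months. Neither of these sums overlapped between the ages, though the pericyte sums came close to it. No marker of either list was at 0 in all libraries of an age. Rgs5, a pericyte regulator of G protein signals, had 105 ± 16.6 CPM at 9 months and 142 ± 12.1 CPM at 2 months, and Myl9, a smooth muscle myosin light chain, had 12.1 ± 0.894 CPM at 9 months and 17.5 ± 2.39 CPM at 2 months (SD, n = 5 each). These markers moved beside the fall of Itm2a, Slco1a4 and Tek in the same libraries, and their part in it was not tested. The summed level of 9 astrocyte endfoot genes did overlap, at 1358 to 1568 CPM at 9 months and 1322 to 1458 CPM at 2 months.

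At 24 months 1 pericyte marker, Rgs5 (-0.27 ± 0.11 on the log2 scale), and 1 smooth muscle marker, Myl9 (-0.23 ± 0.083), were lower, with medians of 0.029 and -0.17. Of 11 basement membrane genes 1 was higher, Lama5 with a log2 fold change of 0.23 ± 0.071, and 3 were lower, among them Nid1 with -0.31 ± 0.072, with a median of -0.056. Of 9 astrocyte endfoot genes 3 were higher, Mlc1 among them with a log2 fold change of 0.13 ± 0.037, and 2 lower, with a median of 0.010. Of 9 leptomeningeal fibroblast genes 3 collagens were lower, with Col3a1 at 8.47 ± 0.956 CPM at 24 months and 16.9 ± 4.56 CPM at 2 months. The sum of the 9 genes was 200.3 to 231.4 CPM at 24 months (median 210). At 2 months it was 231.8 to 345.3 CPM (median 242), a wide spread to the high side. None of 10 liver or 5 red blood cell transcripts passed the test. The liver sum nonetheless was 54.5 to 244 CPM at 24 months (median 198) and 1.07 to 183 CPM at 2 months (median 4.85). Of 3 tested lymphocyte and monocyte genes 1, Ptprc, was higher, with a log2 fold change of 0.39 ± 0.13.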

How the data were processed

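Total RNA of brain hemispheres from 25 male C57BL/6 mice was prepared as RNA-seq libraries, 5 at each of 5 ages. Per the submitters' processing notes, the authors used CASAVA 1.7, STAR 2.4.1d, the GRCm38 genome and featureCounts 1.4.6-p4, and deposited raw counts per Ensembl gene. The annotation release, strand and counting settings are not given in the sources used here. The deposited RPKM values were computed by the authors from these counts. They were not used, because they fit division by library totals that run down the genes (median SD of the implied log2 gene length 4.77e-05) and not by each library's own total (0.327), over 10439 genes. Of 47729 gene identifiers, 47310 matched GENCODE M21, the source of symbols, coordinates, lengths and GC content.

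The tests on counts used edgeR 4.0.16 in R 4.3.3, with filterByExpr, TMM scaling and a robust quasi-likelihood fit of a mean per age. Adjustment followed Benjamini-Hochberg across the whole table, with a threshold of 0.05. Each log2 fold change is the older age over the younger one. Ages of 2 to 24 months were compared in a fit of their 20 libraries, and 30 months in a fit of all 25. The correction for GC content took a natural spline with 4 degrees of freedom per library, of each gene's log2 ratio to the mean of the 20 younger libraries on its GC content, as an offset. The SE was taken from the estimate and its p value. On simulated counts for 9 against 2 months over 17472 genes, 92% of 50 genes with a fold of 1.3 and 94% of 50 with a fold of 1.5 were recovered, and 5.39% of calls were false. The changed genes were drawn only from genes above a minimum mean level. Recovery at levels as low as those of Gkn3, Angpt2 and Vegfc was therefore not tested.

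Alternatives were RLE size factors, total counts, no filter, limma 3.58.1 (voom), DESeq2 1.42.0, a covariate for liver transcripts, other sets of libraries and leaving out each library. The 10 genes are all named. Of each other list up to 4 genes are named, by smallest p of the trend among those past 0.05 in the trend or at 24 against 2 months; Rgs5 and Myl9 at 9 months were chosen after their values were seen. Some genes that these rules name are not reported here. The 10 genes and the lists were chosen with earlier results of these data known. With 5 libraries per age and totals of 17.8 to 31.3 times 1 000 000 counts, the spread between libraries limits the precision. Whether replicate libraries differ through the animal or through preparation is not given.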

Additional observations from a re-analysis of the deposited data

Results flagged for a closer look

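In 7 of 50 groups of 5 libraries, 1 library stood apart from the other 4 by more than 0.71 of the group's range. For independent groups of normally distributed values, chance alone gives about 1 in 20. The groups here are not independent, because all genes of an age share the same 5 libraries. At 30 months, replicate 1 was high for Slco1a4 (50.4 CPM, against 13.9 to 20.5 CPM in the other 4), for Itm2a (48.0 CPM, against 26.2 to 30.4 CPM) and for Tek (18.6 CPM, against 11.4 to 13.3 CPM). Replicate 1 was the library without GC bias at that age. After correction for GC content it still stood apart for Slco1a4 (51.7 CPM, against 31.9 to 34.4 CPM) and Tek (18.4 CPM, against 13.6 to 14.4 CPM). For Itm2a it then lay among the others (48.8 CPM, against 46.2 to 55.3 CPM). What set replicate 1 apart was not tested. Replicate 5 of 30 months, the library with the strongest bias, was high for the GC-rich Cldn5 (55.9 CPM, against 25.8 to 32.7 CPM). After correction Cldn5 was at 34.2 CPM in it, against 19.5 to 26.4 CPM. Pecam1 was high in replicate 1 of 2 months (33.5 CPM, against 24.4 to 26.2 CPM) and in replicate 4 of 15 months (30.5 CPM, against 25.6 to 26.8 CPM). Flt1 was high in the same replicate 4 of 15 months (112 CPM, against 108 to 109 CPM), where the whole range of the group was narrow.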

How the results depend on the processing

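No paired analysis was possible because the labels give no replicate numbers shared across ages. At 9 months against 2 months, 2599 genes and 3 of the 10 genes passed. With all 25 libraries in the fit 423 genes passed. With replicates 1 and 2 of 2 months left out Cldn5, Pecam1 and Flt1 also passed. At 15 months the counts were 2281 and 5. Correction for GC content gave 1460 genes, and all 25 libraries gave 224 genes and 1 of the 10. A covariate for liver transcripts ended the calls of Tek, Slc2a1 and Mfsd2a. At 24 months the counts were 3977 and 4, with 1996 and 2 under the liver covariate and 931 and 2 with all 25 libraries. The trend had 2927 and 2, with 910 genes under the liver covariate, and 990 genes and 1 of the 10 with all 25 libraries. At 30 months, 10324 genes and 6 of the 10 passed against 2 months, and 9701 and 6 against 24 months. Against 24 months the correction for GC content left 7280 genes and 3 of the 10, and a fit of these 2 ages alone left 6366 genes. Replicate 1 as the only library of 30 months gave 1639 genes and 2 of the 10 against 2 months, and 739 and 0 against 24 months.

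Among values of the 10 genes that passed the test, the direction turned only in the comparisons of 30 months; values that did not pass, such as Slc2a1 at 24 against 2 months (-0.081, and 0.016 without 2 months replicate 1), changed sign elsewhere. Itm2a against 24 months was 0.090 with correction for GC content, on the log2 scale. With replicate 1 alone, Slc2a1 was -0.34 against 2 months, and against 24 months Tek was 0.051, Itm2a 0.044, Slc2a1 -0.26 and Mfsd2a -0.23. Leaving out 1 library gave 2054 to 2700 genes and 3 to 5 of the 10 at 9 months, 1361 (without 15 months replicate 1) to 2397 and 4 to 5 at 15 months, 3130 to 4071 and 3 to 5 at 24 months, and 2055 to 3153 and 2 to 3 for the trend. At 30 months it gave 9259 to 11607 and 5 to 7 against 2 months, and 8617 to 11310 and 4 to 7 against 24 months. The 30 month call of Slc2a1 against 2 months was lost without any of 11 libraries (adjusted p up to 0.185). Scaling by total counts alone made 35.2% of the calls at 9 months higher, against 53.2%, and 60.6% of the trend calls, against 50.4%; the calls of the 10 genes in these 2 comparisons did not change. RLE size factors and DESeq2 changed no call of the 10 genes.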
